A study of Mus musculus with 8 samples.

Results

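The 10 genes described here encode the ITAM costimulatory pathway of osteoclasts: the receptors Oscar, Trem2 and Siglec15, the adaptors Tyrobp and Fcer1g, the kinases Syk, Btk and Tec, the phospholipase Plcg2 and the adaptor Lat2. They were taken from the count table by symbol. All 10 were among its 27133 genes, and all 10 passed the filter on low counts. RNA came from the parietal bone, a flat bone of the skull roof, of C57BL6J mouse pups that received either an isotype control antibody (4 libraries, numbered 2 to 5) or an antibody that blocks CSF1R (anti-CSF1R, 4 libraries, numbered 7 to 10). Transcranial dosing took place on postnatal days 2, 4 and 6 and perfusion on day 9, so the groups share strain, dosing days and age and differ in the antibody. CSF1R is the growth factor receptor on which macrophages and osteoclasts depend, and the treatment was meant to deplete myeloid cells. Whether every library comes from a different pup is not stated in the labels, and the spread behind each p-value may therefore be technical.

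An ITAM is a pair of tyrosine motifs in the tail of a signalling adaptor. Osteoclasts form when RANKL acts together with costimulation through such adaptors: OSCAR, a receptor for exposed collagen, signals through FcR gamma (Fcer1g), whereas TREM2, a receptor for lipids and lipoproteins, and SIGLEC15, a receptor for sialylated glycans, signal through DAP12 (Tyrobp). Src family kinases phosphorylate the ITAM, SYK docks on it, and the TEC family kinases BTK and TEC act with scaffold proteins to activate phospholipase C gamma 2. The calcium signal that follows activates NFATc1, the transcription factor that drives osteoclast genes. Mice that lack both adaptors have dense bones with osteoclasts that fail to mature. The same adaptors and kinases also serve macrophages, neutrophils, mast cells, platelets and B cells.

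The 250 bases before the start site are shown for the 3 receptor and adaptor genes that have an entry in the RefSeq promoter table (build GRCm38.p6), since all 3 were lower after treatment. That table held 7 of the 10 genes, with 8 start sites. Oscar lies on the minus strand at chr7:3616158-3616407, Trem2 on the plus strand at chr17:48346151-48346400 and Fcer1g on the minus strand at chr1:171234350-171234599. Capitals mark matches, on either strand, to GAGGAA (the core of the myeloid factor PU.1), TGGAAA (the core of NFAT), TGANTCA (AP-1), CACGTG and TCATGTG (both MITF). No match overlapped another.
Oscar: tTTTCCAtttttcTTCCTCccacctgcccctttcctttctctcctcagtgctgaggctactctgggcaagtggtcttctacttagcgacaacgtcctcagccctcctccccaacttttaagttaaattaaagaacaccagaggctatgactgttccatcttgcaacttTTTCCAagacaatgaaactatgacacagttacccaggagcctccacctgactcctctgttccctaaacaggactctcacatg
Trem2: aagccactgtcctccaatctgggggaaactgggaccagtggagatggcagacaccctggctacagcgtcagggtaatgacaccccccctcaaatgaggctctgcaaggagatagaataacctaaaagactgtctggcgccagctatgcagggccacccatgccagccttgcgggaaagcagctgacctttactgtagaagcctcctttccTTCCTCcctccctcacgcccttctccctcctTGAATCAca
Fcer1g: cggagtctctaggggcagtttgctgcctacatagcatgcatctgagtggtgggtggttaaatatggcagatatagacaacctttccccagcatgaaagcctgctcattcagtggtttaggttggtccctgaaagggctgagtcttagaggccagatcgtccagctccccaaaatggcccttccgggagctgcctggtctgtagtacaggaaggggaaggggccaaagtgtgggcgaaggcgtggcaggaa
The Oscar window held 2 NFAT cores and 1 PU.1 core, and a 2nd PU.1 core lay just downstream of the start. The Trem2 window held 1 PU.1 core and 1 AP-1 match. In the Fcer1g window none of the 5 motifs was found. Among all 32851 windows of 300 bases in the table, 28.3% held GAGGAA, 21.4% TGGAAA, 7.81% TGANTCA, 7.15% CACGTG and 3.77% TCATGTG. These matches describe the letters in the window and are not evidence of binding.

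The libraries held 57.5 M to 69.1 M counts, with the fewest in anti-CSF1R 10. Even numbers made up 82.8% to 84.7% of counts between 1 and 10. Whether each mate of a fragment was counted was not tested, and halved counts are among the alternatives. Isotype 3 and 4 stood apart from the other 6 libraries. Across the tested genes, their Spearman correlation with those 6 was 0.916 to 0.943, against 0.986 to 0.997 among the 6, and their deviation from the median of each gene rose with the GC content of the transcript (rho 0.669 and 0.656, against -0.381 to -0.032 elsewhere). Mitochondrial genes took 0.817% and 0.835% of their counts, against 1.99% to 2.74% in the other 6. The part of this difference in the results was not tested. Results are therefore also given with isotype 2 and 5 only and with an offset for GC content and transcript length. Osteoblast markers, which identify the tissue as bone, summed to 95995 to 159037 CPM (counts scaled to library size) with isotype and 79385 to 97671 CPM with anti-CSF1R. Most of each sum was Col1a1, with group means of 121489 and 83996 CPM. The sums therefore do not speak for the whole list. Of its 7 markers, 4 were lower and 3 higher with anti-CSF1R, and 0 had an edgeR adjusted p under 0.05.

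The receptors, the ITAM adaptors and Syk passed as lower after CSF1R blockade, while Btk, Tec, Plcg2 and Lat2 did not pass. All 10 genes had a log2 fold change below 0, as did 48.2% of all tested genes. Of the 10 genes, 6 fell and 0 rose (edgeR quasi-likelihood test, adjusted p under 0.05 over all 17028 genes tested): Oscar, Trem2, Siglec15, Tyrobp, Fcer1g and Syk. Over all tested genes, 0.822% fell and 0.0235% rose, 0.846% in all. The groups did not overlap in 9 of the 10 genes, all of them lower with anti-CSF1R, against 8.34% of all tested genes, or 15.0% with those higher. The median log2 fold change (anti-CSF1R minus isotype) of the 10 genes was -1.21 and that of all tested genes 0.03. An unadjusted p under 0.05 was found for 8 of the 10 genes and for 3041 of all 17028. In bulk RNA, fewer cells of a type and less RNA per cell cannot be told apart.

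**Figure D1:**
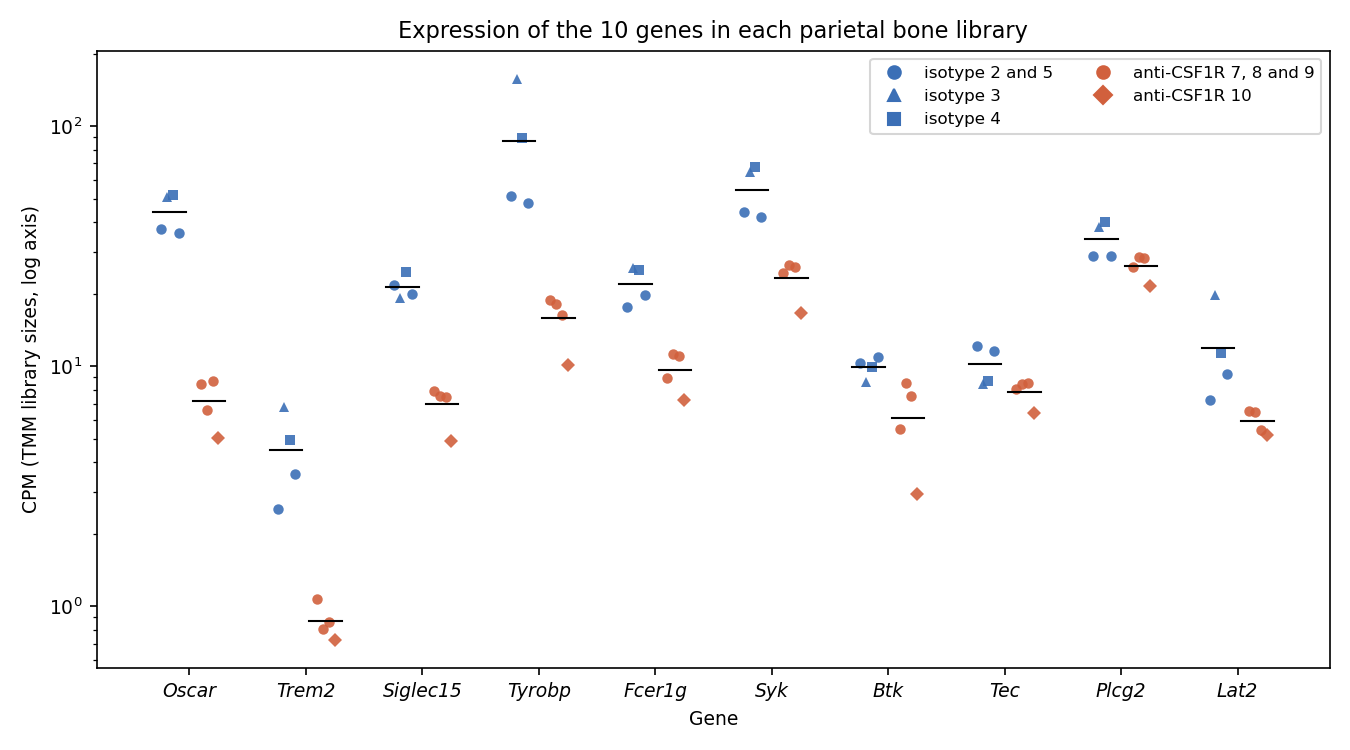
CPM of the 10 genes in each library, on a log axis; each point is a library, and black lines are group means (n = 4). The anti-CSF1R libraries lie below every isotype library in each gene except Tec, and anti-CSF1R 10 is the lowest of its group in all 10.

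Oscar had 37.4, 51.0, 51.7 and 36.1 CPM in the isotype libraries 2, 3, 4 and 5, against 8.47, 6.55, 8.65 and 5.02 CPM in the anti-CSF1R libraries 7, 8, 9 and 10. The lowest isotype library was thus well above the highest anti-CSF1R library. Its log2 fold change was -2.62 ± 0.23 (SE), a 6.13-fold lower level and 3rd in order of p among all tested genes (edgeR adjusted p = 0.00584). Leaving isotype 3 and 4 out gave -2.36 (edgeR adjusted p = 0.00175), and the offset gave -2.49 (6.07e-04).

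Trem2, the least abundant of the 3 receptors, had 2.55, 6.80, 4.95 and 3.56 CPM in the isotype libraries 2, 3, 4 and 5, against 1.08, 0.805, 0.865 and 0.726 CPM in the anti-CSF1R libraries 7, 8, 9 and 10. Isotype 3 was the highest and isotype 2 the lowest of the controls, and the groups did not overlap. Trem2 changed by -2.36 ± 0.32 log2 units (edgeR adjusted p = 0.0189). Without isotype 3 and 4 it came to -1.82 (edgeR adjusted p = 0.00281), and under the offset to -1.84 (0.00128). Counts in the anti-CSF1R libraries were 44 to 76, far above the 3 counts taken as the detection floor.

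Siglec15, which is known to promote osteoclast fusion and maturation, stood at 21.8, 19.3, 24.7 and 20.0 CPM in isotype 2 to 5. The anti-CSF1R libraries 7 to 10 had 7.88, 7.50, 7.49 and 4.89 CPM. Isotype 3 and 4 did not stand together here, in contrast with Oscar and Trem2, and anti-CSF1R 10 lay below 3 nearly equal values. For Siglec15 the log2 fold change was -1.63 ± 0.19 (edgeR adjusted p = 0.0156), -1.59 without isotype 3 and 4 and -1.31 under the offset. Its transcript has the highest GC content of the 10, 68.2%, against 46.4% to 57.5% in the other 9.

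Of the adaptors, Tyrobp was the more variable. Tyrobp had 51.3, 158, 89.6 and 48.0 CPM in the isotype libraries 2, 3, 4 and 5, against 19.0, 18.3, 16.3 and 10.1 CPM in the anti-CSF1R libraries 7, 8, 9 and 10. Isotype 3 was about as far above isotype 4 as isotype 4 was above the other controls on a log scale, and all controls were above all treated libraries. Its log2 fold change was -2.44 ± 0.41 (edgeR adjusted p = 0.0328). It shrank to -1.64 once isotype 3 and 4 were left out (edgeR adjusted p = 0.0297), and to -1.88 under the offset.

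Fcer1g, the adaptor of OSCAR and of Fc receptors, stood at 17.7, 25.6, 25.3 and 19.8 CPM in isotype 2 to 5. It stood at 8.95, 11.3, 11.0 and 7.26 CPM in anti-CSF1R 7 to 10. The groups were separate, with a smaller step between them than in Tyrobp. Its log2 fold change was -1.20 ± 0.20 (2.29-fold lower, edgeR adjusted p = 0.0336), -0.96 without isotype 3 and 4 and -0.86 under the offset, past the threshold in both.

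Syk, the kinase that binds the phosphorylated ITAM, had 44.1, 64.3, 67.4 and 41.9 CPM in the isotype libraries 2, 3, 4 and 5, against 24.4, 26.4, 26.0 and 16.7 CPM in the anti-CSF1R libraries 7, 8, 9 and 10. Isotype 3 and 4 were again the higher controls. The log2 fold change of -1.22 ± 0.22 passed narrowly (edgeR adjusted p = 0.0481). With isotype 2 and 5 only it was -0.88 and did not pass (edgeR adjusted p = 0.0574). With the offset it was -1.15 and passed (0.00781).

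The TEC family kinases did not pass on all libraries. Btk, the kinase whose loss in humans halts B cell development, had 10.3, 8.59, 9.97 and 10.9 CPM in the isotype libraries 2, 3, 4 and 5, against 5.47, 8.53, 7.50 and 2.94 CPM in the anti-CSF1R libraries 7, 8, 9 and 10. Anti-CSF1R 8 lay just below isotype 3, and anti-CSF1R 10 was far below the rest. For Btk the log2 fold change was -0.70 ± 0.30 (edgeR adjusted p = 0.278). Tec had 12.2, 8.48, 8.65 and 11.5 CPM in the isotype libraries 2, 3, 4 and 5, against 8.03, 8.41, 8.51 and 6.37 CPM in the anti-CSF1R libraries 7, 8, 9 and 10. Its groups overlapped through anti-CSF1R 9 and isotype 3. The log2 fold change of Tec was -0.38 ± 0.19 (edgeR adjusted p = 0.282). Leaving isotype 3 and 4 out, Tec passed (-0.60, edgeR adjusted p = 0.0361), as it did under the offset (-0.60, 0.0260), in a range of 0.0260 to 0.912 over 18 alternatives. Btk and Tec have the lowest GC content of the 10 transcripts, 46.8% and 46.4%, and were the only members of the 10 lower in both isotype 3 and 4 than in isotype 2 and 5.

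Plcg2, the phospholipase that releases the calcium signal, had 28.8, 38.0, 39.8 and 28.8 CPM in the isotype libraries 2, 3, 4 and 5, against 26.0, 28.6, 28.2 and 21.6 CPM in the anti-CSF1R libraries 7, 8, 9 and 10. Isotype 2 and 5 were at nearly the level of anti-CSF1R 8 and 9. Plcg2 differed by -0.37 ± 0.17 log2 units (edgeR adjusted p = 0.278), or by -0.14 without isotype 3 and 4 (0.606). Lat2, a membrane adaptor best known in mast cells and B cells, had 7.23, 19.8, 11.4 and 9.26 CPM in the isotype libraries 2, 3, 4 and 5, against 6.52, 6.46, 5.42 and 5.20 CPM in the anti-CSF1R libraries 7, 8, 9 and 10. Isotype 3 was far above the other controls, and isotype 2 came close to anti-CSF1R 7. Lat2 differed by -1.01 ± 0.30 log2 units (edgeR adjusted p = 0.199), or by -0.49 without isotype 3 and 4 (0.132). DESeq2 called it on all libraries (adjusted p = 0.0298; range over 18 alternatives 0.0298 to 0.912). In GENCODE M21, 952 exonic bases of Lat2 overlap Rfc2 on the other strand. The strand setting of the counting is not given in the sources used here, and Rfc2 too was highest in isotype 3 (71.2 CPM, against 34.1 to 52.0 CPM in the other 7 libraries).

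**Figure D2:**
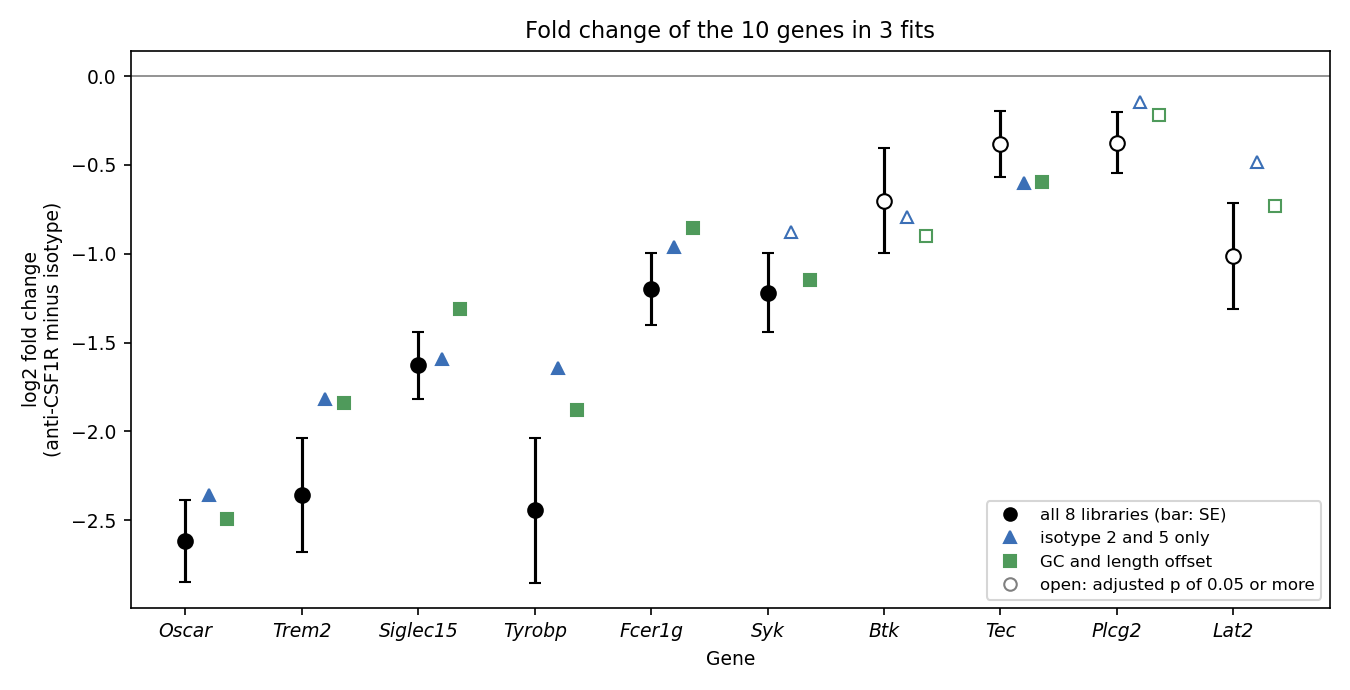
Log2 fold change of each gene on all 8 libraries (circles, bars are the SE), with isotype 2 and 5 only (triangles) and with the GC and length offset (squares); filled symbols had an adjusted p under 0.05. Every value lies below 0; Syk loses its call with isotype 2 and 5 only, and Tec passes in both alternatives.

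Many of these calls were lost when single libraries were left out, and the cause was not tested. Without anti-CSF1R 7 or without anti-CSF1R 8, edgeR called 0 of the 10 genes and 0 genes in all, with 1903 and 1597 genes at an unadjusted p under 0.05. Without anti-CSF1R 9 it called Oscar (0.0232% of all genes were lower), without anti-CSF1R 10 Oscar and Siglec15 (0.0813%), and without isotype 4 the same pair (0.203%). Without isotype 3 the calls were Oscar, Trem2, Siglec15 and Tyrobp (0.591%). All 6 were called without isotype 2 (1.42%) and without isotype 5 (1.12%). Over these 8 fits the log2 fold change of Oscar kept between -2.72 and -2.48 (edgeR adjusted p 0.0166 to 0.0699) and that of Syk between -1.34 and -1.09 (0.0399 to 0.164).

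Under the other ways of fitting, more calls were kept for the receptors than for Syk. With RLE factors, with halved counts and with no filter the 6 calls were the same genes (0.899%, 0.877% and 0.678% of all genes lower). DESeq2 added Lat2 (3.69%) and the offset added Tec (2.32%). Syk alone was lost with limma-voom (0.652%) and with a filter of 1 CPM (0.821%), and library size alone left the receptors and Tyrobp (0.529%). With isotype 2 and 5 only the calls were the 5 receptors and ITAM adaptors and Tec (2.38%). Skeletal muscle markers summed to 6.22 to 63.3 CPM in the isotype libraries, highest in isotype 3, and to 6.64 to 6.76 CPM in the anti-CSF1R libraries. Fitted with a muscle score as covariate, edgeR called 0 of the 10 genes and 0 genes in all (938 at an unadjusted p under 0.05); the part of muscle in the result was not tested.

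Within the anti-CSF1R group, library 10 was the lowest in all 10 genes, as it was in 25.8% of all tested genes. Within the isotype group, libraries 3 and 4 were both above 2 and 5 in 7 of the 10 genes (37.5% of all tested genes) and both below in 2 (41.1%). Csf1r had the same order, with 39.4 CPM in anti-CSF1R 10 against 61.4 to 64.4 CPM in the other treated libraries.

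Levels were set against each other per kilobase of the longest coding transcript in GENCODE M21. With isotype the order was Tyrobp (145 ± 85.4 CPM per kb, SD, n = 4), Fcer1g (32.4 ± 5.77), Oscar (24.1 ± 4.62), Siglec15 (18.6 ± 2.06), Syk (10.1 ± 2.48), Plcg2 (7.87 ± 1.37), Lat2 (6.94 ± 3.21), Trem2 (4.11 ± 1.69), Btk (3.91 ± 0.384) and Tec (3.84 ± 0.724). Neighbours in this order had overlapping ranges except Tyrobp and Fcer1g, and Siglec15 and Syk. With anti-CSF1R the 2 adaptors still led, Tyrobp at 26.7 ± 6.75 and Fcer1g at 14.1 ± 2.78 CPM per kb, and these ranges did not overlap with each other or with the next gene. Plcg2 came next (6.07 ± 0.740), ahead of Siglec15, Syk and Oscar at 6.00 ± 1.19, 4.36 ± 0.848 and 3.92 ± 0.942 CPM per kb, with overlapping neighbours. Trem2 was last at 0.798 ± 0.138 CPM per kb, below the range of Btk.

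Ratios between partner genes, taken within each library so that the library scaling cancels, compared how far the partners moved. The log2 ratio of Oscar to its adaptor Fcer1g was 1.07, 0.99, 1.03 and 0.86 in isotype 2 to 5 and -0.08, -0.78, -0.35 and -0.53 in anti-CSF1R 7 to 10. The isotype libraries, 3 and 4 included, lay within a narrow band above every treated library. The difference was -1.43 (exact two-sided permutation p = 0.0286, the smallest that 70 assignments allow, 0.0857 adjusted over 6 pairs), with 4 of 4 treated libraries lower, and it was -1.40 without isotype 3 and 4 and -1.64 under the offset. It did not pass after adjustment. As its p was already the smallest possible, whether it passed depended on the p of the other pairs.

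The log2 ratio of Tyrobp to Fcer1g was 1.53, 2.62, 1.83 and 1.27 in isotype 2 to 5 and 1.08, 0.69, 0.56 and 0.47 in anti-CSF1R 7 to 10. The groups did not overlap, though isotype 5 and anti-CSF1R 7 were close. The difference was -1.11 (exact permutation p = 0.0286, 0.0857 adjusted), or -0.70 without isotype 3 and 4. For Trem2 against its adaptor Tyrobp the log2 ratio was -4.19 ± 0.333 with isotype and -4.12 ± 0.293 with anti-CSF1R (SD, n = 4), a difference of 0.07, smaller than either SD (exact permutation p = 0.771, 0.771 adjusted). This difference turned to -0.09 with isotype 2 and 5 only. Siglec15 against Tyrobp gave a difference of 0.67 (exact permutation p = 0.171, 0.240 adjusted), which fell to 0.07 with isotype 2 and 5 only; isotype 3, at -3.03, was the library farthest from the rest. Btk against Tec gave -0.43 (exact permutation p = 0.200, 0.240 adjusted). Plcg2 against its relative Plcg1, which stood at 176 and 173 CPM in the isotype and anti-CSF1R groups, gave -0.34 (exact permutation p = 0.0571, 0.114 adjusted).

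**Figure D3:**
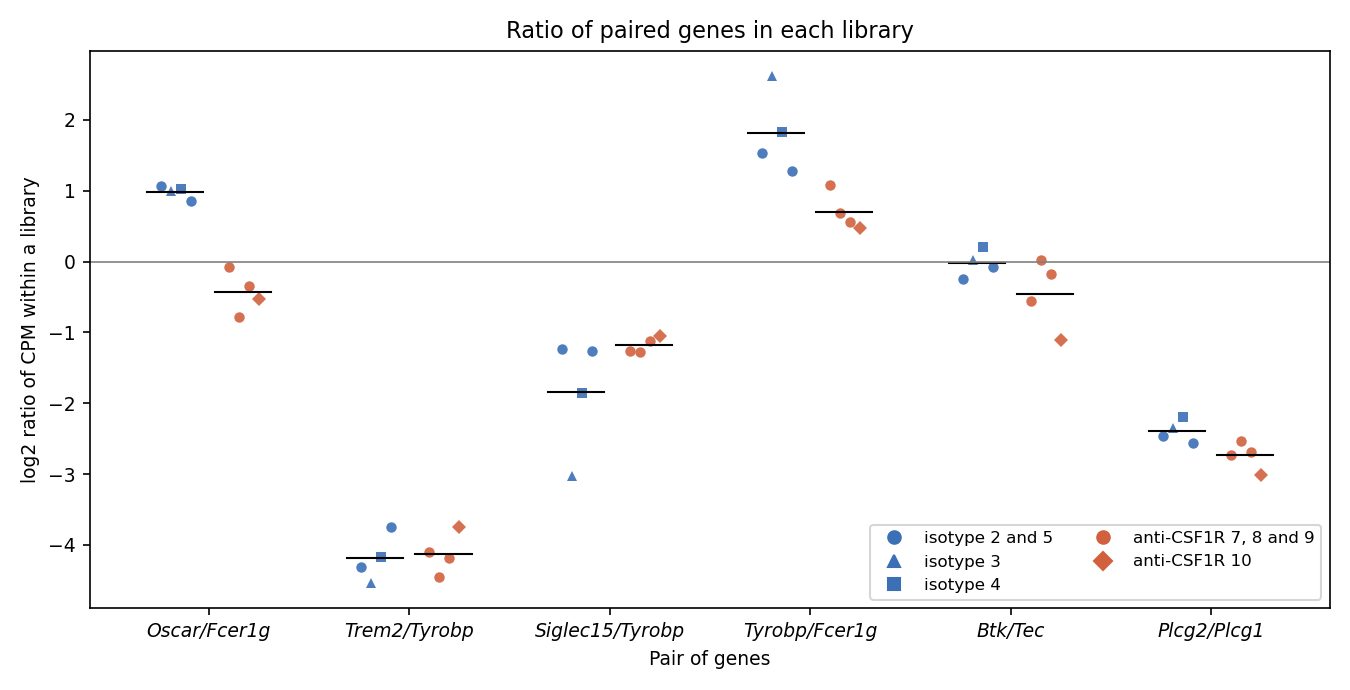
Log2 ratio of CPM (not per length) of 6 pairs of genes in each library; black lines are group means (n = 4). Oscar/Fcer1g and Tyrobp/Fcer1g separate the groups, with treated libraries lower; the other 4 pairs overlap.

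Genes with the most similar pattern were found for each of the 10 by the Euclidean distance between centred log2 CPM over the 8 libraries, a description that also takes in the difference between groups. Nearest to Oscar was Csf1r (distance 0.669), followed by Slc37a2, a sugar phosphate transporter gene of osteoclasts (0.750), and Ms4a7, a macrophage gene (0.775). Siglec15 was closest to Gpr137b, a lysosomal membrane protein gene (0.140), then Pla2g7 and Nckap1l (0.371 and 0.384). Tyrobp was closest to Cd5 (0.235), Ocstamp, an osteoclast fusion gene (0.282), and Acp5, the gene of the osteoclast enzyme TRAP (0.359). The nearest genes to Trem2 were Matk (0.467), Cd68 (0.556) and Slc37a2 (0.616). Fcer1g and Syk were each among the 3 nearest of the other (0.318), and both had Pik3ap1, an adaptor of PI3 kinase, among theirs. Fcer1g was nearest of all to Sirpa (0.310). For Syk, Wdr91 stood between these (0.339). Btk was nearest to Fcgr2b, Ctss and Lair1 (0.450, 0.483 and 0.588), Tec to Perm1, Tpp1 and Tlr5 (0.260, 0.344 and 0.345), Plcg2 to Hs6st1, Cdkn2c and Nek2 (0.186, 0.215 and 0.217) and Lat2 to H2-D1, Pycard and Gpsm3 (0.205, 0.302 and 0.309).

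Among 8 genes of ligands recorded for OSCAR, TREM2 and SIGLEC15, 7 were tested, 1 fell and 0 rose (median log2 fold change -0.48). The shares of all tested genes were 0.822% and 0.0235%. An unadjusted p under 0.05 was found for 3 of the 7 (3041 of all 17028), and DESeq2 called 2 (4.56% of all genes). Col2a1, named after its values were seen, had the lowest log2 fold change of the list but did not pass (-2.98 ± 0.88, edgeR adjusted p = 0.199). It ranged from 210 to 1951 CPM with isotype, highest in isotype 5, and from 15.1 to 182 CPM with anti-CSF1R. The gene that fell was Apoe, whose apolipoprotein binds TREM2. Apoe had 110, 243, 205 and 117 CPM in the isotype libraries 2, 3, 4 and 5, against 47.1, 54.7, 51.0 and 42.8 CPM in the anti-CSF1R libraries 7, 8, 9 and 10. Isotype 3 and 4 were well above the other controls, and the groups did not overlap. Apoe changed by -1.79 ± 0.27 log2 units (edgeR adjusted p = 0.0267), or by -1.21 without isotype 3 and 4 (3.76e-04). Sftpd, a surfactant protein that binds OSCAR, was at 0 counts in all 8 libraries.

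Other receptors that signal through these adaptors or through HCST did not move in a single direction. Of 22 listed, 20 were tested, 1 fell and 1 rose, with 10 log2 fold changes below and 10 above 0 (median 0.22). Of all tested genes, 0.822% fell, 0.0235% rose and 48.2% lay below 0. For 11 of the 20 the unadjusted p was under 0.05, against 3041 of all 17028. Clec4n, the gene of Dectin-2, fell, from a range of 1.95 to 3.82 CPM among isotype libraries to 0.545 to 0.963 CPM in the treated libraries (log2 fold change -1.86 ± 0.28, edgeR adjusted p = 0.0266). Clec4e, the gene of Mincle, which like Dectin-2 pairs with FcR gamma, rose, from a range of 0.0638 to 0.254 CPM, close to the floor of 0.0396 to 0.0573 CPM, to 0.693 to 1.51 CPM (2.73 ± 0.45, edgeR adjusted p = 0.0322). Clec4n was called in 12 of 18 alternatives and Clec4e in 10 of 17, the offset and the fit without isotype 3 and 4 among them. The list's other 18 tested genes, among them close paralogs whose reads the counting may split, did not pass in edgeR on all libraries. In all, DESeq2 called 4 of the 20, limma-voom 2, the offset fit 4 and the fit without isotype 3 and 4 called 3. Of all genes tested, these fits called 4.56%, 0.681%, 2.88% and 3.06%.

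Src family kinases had 0 of 8 tested genes past the threshold in edgeR (2 at an unadjusted p under 0.05, 1 called by DESeq2 and 0 by limma-voom). Among all 17028 tested genes, 3041 had such a p, and DESeq2 called 4.56%. The most abundant were Fyn and Src. Src, the kinase that osteoclasts need to form a ruffled border, had group means of 88.8 ± 31.7 and 41.5 ± 4.44 CPM and differed by -1.10 ± 0.25 log2 units (edgeR adjusted p = 0.0876). Without isotype 3 and 4 it was called, at -0.62 (edgeR adjusted p = 0.00595; range over 18 alternatives 0.00216 to 0.607). Fyn stood at 140 ± 17.1 and 169 ± 9.25 CPM (0.27 ± 0.14, edgeR adjusted p = 0.290). Of the other SYK and TEC family kinases, 0 of 3 tested passed in edgeR, DESeq2 or limma-voom, and 0 had an unadjusted p under 0.05. Bmx and Zap70, the most abundant of them, had group means of 1.95 CPM or less.

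Downstream scaffolds and exchange factors had 0 of 14 genes past the threshold in edgeR, though 9 had an unadjusted p under 0.05 and 12 a log2 fold change below 0 (median -0.58). Over all 17028 tested genes, 3041 had such a p and 48.2% lay below 0. DESeq2 called 5 of the 14, limma-voom 0, edgeR with the offset 5 and with isotype 2 and 5 only 2. The shares of all genes called in these fits were 4.56%, 0.681%, 2.88% and 3.06%. Pik3ap1 and Dok3, chosen after their values were seen, came closest: Pik3ap1 at -1.20 log2 units (edgeR adjusted p = 0.0522), Dok3 at -1.37 (0.0710). The most abundant members were Grb2 (94.6 ± 22.9 and 66.3 ± 2.64 CPM with isotype and anti-CSF1R, edgeR adjusted p = 0.275) and Vav2 (91.0 ± 16.7 and 85.0 ± 4.15 CPM, 0.661).

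In the calcium and NFAT branch 1 of 17 genes fell and 0 rose, with a median log2 fold change of 0.23. Among all tested genes, 0.822% fell and 0.0235% rose. The gene of the branch that fell was Nfatc1 itself. It had 142, 167, 175 and 164 CPM in the isotype libraries 2, 3, 4 and 5, against 89.3, 78.1, 91.3 and 84.9 CPM in the anti-CSF1R libraries 7, 8, 9 and 10. Its controls were close together and well above the treated libraries. The log2 fold change was -0.91 ± 0.13 (edgeR adjusted p = 0.0231), close to that without isotype 3 and 4 (-0.84) or under the offset (-0.82). The remaining 16 did not pass in edgeR on all libraries. Counting Nfatc1, DESeq2 called 2 of the 17 genes, limma-voom 1, the offset fit 2 and the fit without isotype 3 and 4 called 3. These fits called 4.56%, 0.681%, 2.88% and 3.06% of all genes tested.

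Genes that oppose the pathway fell as well in part. Of 18 inhibitory (ITIM) receptors, phosphatases and ubiquitin ligases, 3 fell and 0 rose (median log2 fold change -0.54), all 3 of them inhibitory receptors. Of all tested genes, 0.822% fell and 0.0235% rose. For 10 of the 18 the unadjusted p was under 0.05, against 3041 of all 17028 tested genes. DESeq2 called 8 of the 18 and 4.56% of all genes. Clec12a had 36.1, 36.7, 41.1 and 38.0 CPM in the isotype libraries 2, 3, 4 and 5, against 9.15, 10.4, 11.8 and 5.55 CPM in the anti-CSF1R libraries 7, 8, 9 and 10, with controls within a narrow range (log2 fold change -2.04 ± 0.23, edgeR adjusted p = 0.0142). Clec4a2, which encodes a dendritic cell inhibitory receptor, fell to 5.07 ± 1.68 CPM, from 20.5 ± 6.42 CPM with isotype (-2.02 ± 0.31, edgeR adjusted p = 0.0267). Sirpa, the CD47 receptor of myeloid cells, fell from 143 ± 34.7 to 62.8 ± 8.77 CPM (-1.19 ± 0.20, edgeR adjusted p = 0.0356). With isotype 2 and 5 only 4 of the list were lower and 1 higher, and with the offset 8 were lower. Of all tested genes, 2.38% and 2.32% were lower in these fits, in that order.

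Genes called in these lists also lost their calls in fits without single libraries. Apoe, Clec4n, Nfatc1, Clec4a2 and Sirpa each lost their call without isotype 4, without any 1 of the 4 anti-CSF1R libraries, and with the muscle covariate (edgeR adjusted p up to 0.198, 0.193, 0.137, 0.214 and 0.271). Clec4e lost its call in the same fits and also without isotype 3 (edgeR adjusted p = 0.0735). Clec12a lost it without anti-CSF1R 7, 8 or 9 and with the muscle covariate (edgeR adjusted p up to 0.0812).

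**Figure D4:**
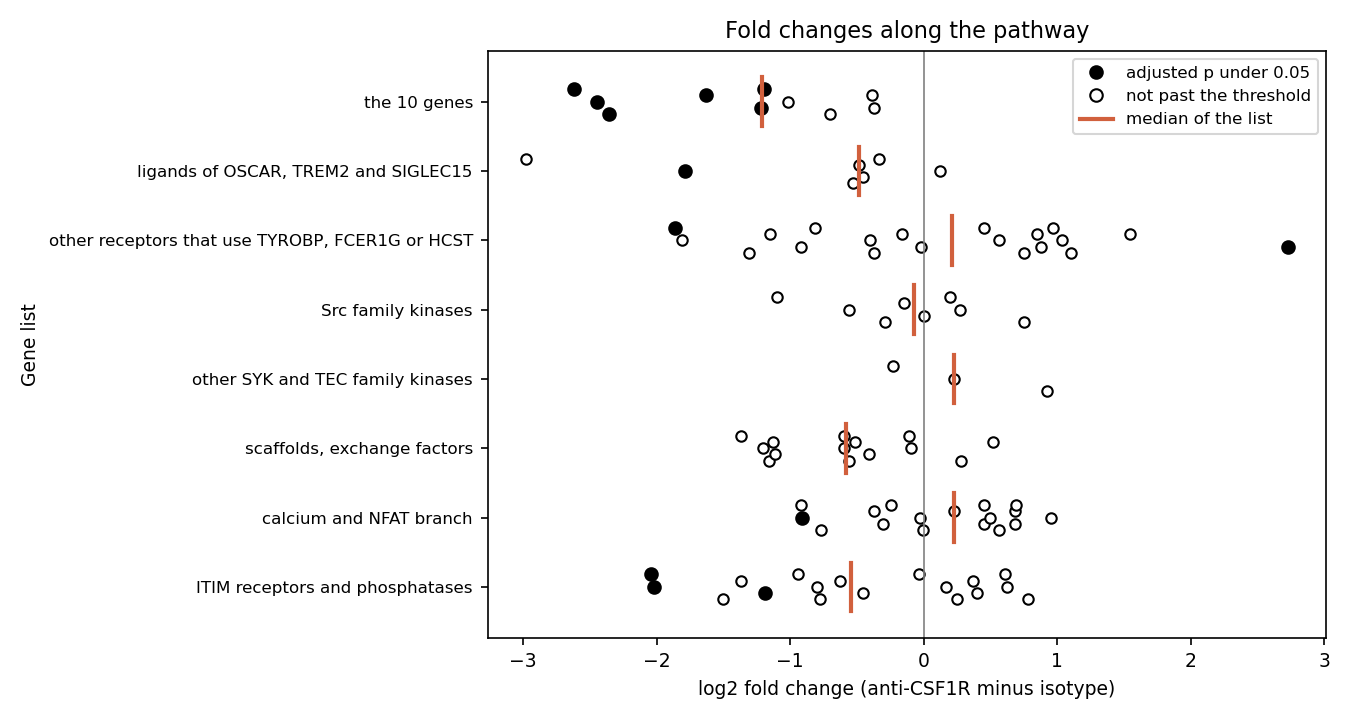
Log2 fold changes of the tested genes among the 10 and in the 7 pathway lists (anti-CSF1R minus isotype, all 8 libraries); filled points had an adjusted p under 0.05 and orange bars are list medians. Of the lists plotted, the 10 genes have the lowest median, -1.21, and 6 filled points. Marker lists are not plotted, and the osteoclast and macrophage markers had lower medians, -1.72 and -2.40. Downstream, the scaffold list holds 0 filled points of 14 and the calcium and NFAT list 1 of 17, against 0.846% of all tested genes.

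Markers of the cells that carry this pathway moved to different degrees. Over all tested genes, edgeR called 0.822% lower (adjusted p under 0.05), and 48.2% had a log2 fold change below 0. Of the 9 osteoclast markers it called 6 lower, and all 9 lay below 0 (median -1.72). Their sum was 5879 to 13706 CPM with isotype and 2263 to 3034 CPM with anti-CSF1R. Of the 10 macrophage markers it called 7 lower, and 9 lay below 0 (median -2.40). Their sums were 527 to 982 and 178 to 231 CPM. Both sums were highest in isotype 3 and 4 and lowest in anti-CSF1R 10, as in most of the 10 genes. Abundant markers weighed most in the isotype sums: Mmp9, Ctsk and Acp5 for osteoclasts, and Csf1r, the target of the antibody, for macrophages. The order did not hold for every marker. Atp6v0d2, Calcr, Mrc1 and Mertk were lower in both isotype 3 and 4 than in isotype 2 and 5. Mertk had a higher mean in the treated group (96.4 CPM, against 66.2 CPM in the controls) but did not pass. Its highest treated library was anti-CSF1R 10. Of the 7 monocyte markers edgeR called 1 lower, and the other 6 had a log2 fold change above 0. Their sums overlapped, at 41.1 to 50.7 and 28.1 to 64.6 CPM. Neutrophil markers had 0 of 8 past the threshold in edgeR, DESeq2 or limma-voom (0 at an unadjusted p under 0.05), with sums of 123 to 331 and 110 to 324 CPM. For B cell markers it was 0 of 8 by all 3 tools, with sums of 29.9 to 56.4 and 22.6 to 43.3 CPM. Of these 8, 2 had an unadjusted p under 0.05, against 3041 of all 17028 tested genes. Mast cell and basophil markers (0 of 6 tested), platelet and megakaryocyte markers (0 of 7) and NK and T cell markers (0 of 3) gave 0 calls by any of the 3 tools and 0 unadjusted p under 0.05. Their sums were 3.00 to 10.6 and 2.18 to 6.20 CPM, 31.1 to 85.6 and 25.0 to 81.4 CPM, and 0.750 to 2.31 and 0.792 to 1.45 CPM. No marker was at 3 counts or fewer in every library. The part of each cell type in the 10 genes was not tested.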

How the data were processed

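Raw counts per gene symbol were used as deposited by the authors, in a table of 27133 genes and 8 libraries. Per the submitters' processing notes the tools were STAR 2.7.10b and featureCounts 1.6.3; the notes list GRCm38 and GRCm39 without saying which was used. For annotation, strand setting and multiply mapped reads nothing is given in the sources used here, and close paralogs and antisense genes carry that uncertainty. Coordinates printed are those of the RefSeq promoter table, not of the counts.

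The comparison used edgeR 4.0.16 (R 4.3.3): filterByExpr, which left 17028 genes, TMM scaling, dispersions estimated robustly and a quasi-likelihood F-test, with Benjamini-Hochberg adjusted p over all tested genes and a threshold of 0.05. CPM uses TMM library sizes, and the detection floor of 3 counts, 0.0396 to 0.0573 CPM, covers counting error only. The scripts were tested on simulated data. Ratios are differences of log2 CPM (prior count 2), tested by exact permutation over 70 assignments and adjusted over 6 pairs. Pairs of libraries of a group differed by at least 3.99 times counting noise in squared difference (median over 8632 genes), so none was counted as a copy.

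Named genes are the 10, and in each of 7 pathway lists those past the threshold or else the 2 most abundant, with Csf1r and Ctsk as checks and the 3 nearest genes to each of the 10 (mean log2 CPM of at least 0). Ctsk stood at 2584 and 797 CPM. The members and lists were chosen with earlier results of these data known. Alternatives were DESeq2 1.42.0, limma-voom (limma 3.58.1), RLE factors, library size alone, no filter, 1 CPM in 4 libraries, a skeletal muscle score as covariate, an offset fitted in each library with natural splines of 5 degrees of freedom on transcript GC content and log2 length, both taken from the longest coding transcript (known for 94% of tested genes), halved counts, isotype 2 and 5 only, and leaving out each library. A search of the proteins for the ITAM was not made, as no protein sequences were used here.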

Additional observations from a re-analysis of the deposited data

Results flagged for a closer look

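In 62 groups of 4 values examined with Dixon's test (25 genes and 6 ratios in each group), 2 had a library farther from the others than the 95% limit allows, fewer than the 1 in 20 that chance gives. Both were anti-CSF1R 10. Siglec15 stood at 4.89 CPM there, against 7.49 to 7.88 CPM in anti-CSF1R 7, 8 and 9. Csf1r stood at 39.4 CPM, against 61.4 to 64.4 CPM. Without anti-CSF1R 10 the log2 fold change of Siglec15 was -1.49 (edgeR adjusted p = 0.0363).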

How the results depend on the processing

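No paired analysis was possible because the replicate numbers are not shared between the groups. Over 18 alternatives the log2 fold changes of all 10 genes stayed below 0. The number of all genes called went from 144 to 777 with DESeq2, 490 with the GC and length offset, 536 with isotype 2 and 5 only and 0 with the muscle score as covariate (938 at an unadjusted p under 0.05), and to between 0 and 260 without each library (0 without anti-CSF1R 7 or 8, 4 without 9, 14 without 10, 35 without isotype 4, 234 without 5, 260 without 2). The number of the 10 genes called went from 6 to 0 with the muscle covariate, where the log2 fold change of Oscar was -2.57 (edgeR adjusted p = 0.0648), and to between 0 and 6 without each library; the cause was not tested. The call of Syk was lost in 11 of 18 alternatives, that of Fcer1g in 8, those of Trem2 and Tyrobp in 6 each, that of Siglec15 in 4 and that of Oscar in 3. Library size alone moved the median of all genes to 0.19, and with it Fcer1g and Syk lost their calls (edgeR adjusted p = 0.0596 and 0.0682). Vav2 changed sign with library size alone, the offset and isotype 2 and 5 only (0.078, 0.023 and 0.13), as did Zap70 with the muscle covariate and the offset (0.057 and 0.078); both were short of the threshold throughout. Ratios with 2 isotype libraries allow no p under 0.0667 before adjustment. The 10 genes all lay above the floor of 3 counts; 4 libraries a group limit the precision of every difference.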
